A study of Mus musculus with 6 samples.

Results

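The 36 genes described here encode the machinery that makes ribosomal RNA and assembles it into subunits. They were chosen by name: box C/D and H/ACA small nucleolar ribonucleoproteins (snoRNPs), RNA polymerase I, the small-subunit processome with later small-subunit factors, and large-subunit factors. All 36 were found among the 53465 genes of the deposited table, and all 36 were among the 8200 genes abundant enough to test. They comprised 16 small-subunit factors, 6 large-subunit factors, 3 RNA polymerase I subunits, 3 box C/D proteins, 4 H/ACA proteins and 4 nucleolar proteins that act at several steps.

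RNA was sequenced from ID8, a tumour-forming cell line derived from mouse ovarian surface epithelium, in 3 libraries labelled WT and 3 labelled KO. The series describes ID8 cells stably transfected with a control guide (sgNC) or a guide against Nat10 (sgNat10). WT is read here as sgNC and KO as sgNat10, which the series calls a knockdown. No drug treatment is named, and the labels do not say whether a line is 1 clone or whether replicates 4 to 6 are separate cultures. The spread that p-values rest on is thus that of 6 libraries and may be technical, and guide and line cannot be told apart.

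RNA polymerase I transcribes one long precursor that holds the 18S, 5.8S and 28S ribosomal RNAs. Box C/D snoRNPs methylate riboses and H/ACA snoRNPs convert uridine to pseudouridine, while the small-subunit processome, built around the U3 snoRNP, folds and cuts the precursor to release 18S RNA. NAT10, the acetyltransferase targeted by the guide, acts in this process: it places N4-acetylcytidine (ac4C) on 18S RNA. Large-subunit factors process the 28S side, and proliferating cells keep many of these factors at high levels.

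Total counts ran from 1687466 to 3126208 per library and were higher in every library labelled KO than in any labelled WT. Levels are given as CPM, counts relative to the library's size after TMM scaling, and 1 count was worth 0.310 to 0.608 CPM. The level of Nat10 did not separate the groups, with 102, 64.0 and 169 CPM in WT replicates 4, 5 and 6 and 123, 56.9 and 138 CPM in KO replicates 4, 5 and 6. Its log2 fold change was -0.07 ± 0.48 (SE; edgeR adjusted p = 0.99996). Every direction below is KO-labelled relative to WT-labelled. The ovarian surface markers were present, with 10233 to 15090 counts per library over 8 genes (Krt7 had 6 counts in WT replicate 4 and 0 elsewhere). These markers differed between the groups: of 7 tested, 3 were called by edgeR, with log2 fold changes of -0.92 for Krt19 (adjusted p = 0.0044), -1.74 for Krt18 (0.0195) and 1.05 for Msln (0.0145). Krt8 (-2.42, adjusted p = 0.51) and Upk1b (0.80, 0.304) did not pass, but their groups did not overlap. The part of this shift in the values below was not tested. None of the immune and endothelial markers reported here was abundant enough to test, Cd3e and Emcn had no count, and the highest value was 29 counts of Cd68 in WT replicate 5.

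No ribosome biogenesis gene passed an adjusted p of 0.05 in edgeR's quasi-likelihood test. In bulk RNA, fewer cells expressing a gene and less RNA per cell cannot be told apart. The count was 0 of 36, where 33 of the 8200 tested genes passed (0.402%; 6 to 29 genes with 1 library left out). At an unadjusted p under 0.05 edgeR gave 4 members, all lower: Polr1a, Emg1, Nop2 and Npm1. DESeq2 gave 7, these 4 with Bop1, which was lower, and Utp15 and Wdr12, which were higher. The share of all tested genes at this unadjusted DESeq2 threshold was not computed, so the 7 have no background here. At an adjusted p under 0.05 DESeq2 called 237 genes in all, where edgeR called 33. In edgeR the 4 are 11.1% of the members against 6.49% of all tested genes, and 10.6% of the tested genes between 50 and 400 CPM. Some members, Npm1 among them, lie outside that band. In edgeR the 4 became 0 without WT replicate 4, and 2 without WT replicate 5, KO replicate 4 or KO replicate 5. DESeq2 called 0 of 36 members against 2.89% of all tested genes, and limma-voom called 0 of 36. The median log2 fold change over the members was -0.13, with 16 estimates above 0 and 20 below, and the median over all tested genes was -0.02. The members' median was -0.02 with scaling by library totals and -0.01 without WT replicate 4. Scaling by library totals moves every gene, and the median over all tested genes was not computed under it. Leaving out KO replicate 4, 5 or 6 gave -0.07, -0.08 and -0.03. The groups did not overlap for 6 members, 2 higher and 4 lower in KO. That is 16.7% of members, against 14.9% of all tested genes (6.94% higher and 7.93% lower).

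The intervals bound how large a difference these data leave possible. For 11 of the 36 members the 95% interval of the log2 fold change lay between -1 and 1, that is, within 2-fold either way. This held for 30.6% of members, 9.44% of all tested genes and 17.9% of those between 50 and 400 CPM. The 11 were Nop56, Nop58, Dkc1, Ncl, Npm1, Nolc1, Ddx21, Heatr1, Wdr43, Utp20 and Tsr1. Of these, Nop58, Ncl and Npm1 lie above 400 CPM, outside that band. For the other 25 members the interval reached past 2-fold in at least 1 direction. The widest intervals belonged to Dimt1, Gar1 and Rrp9, which were among the least abundant members.

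**Figure D1:**
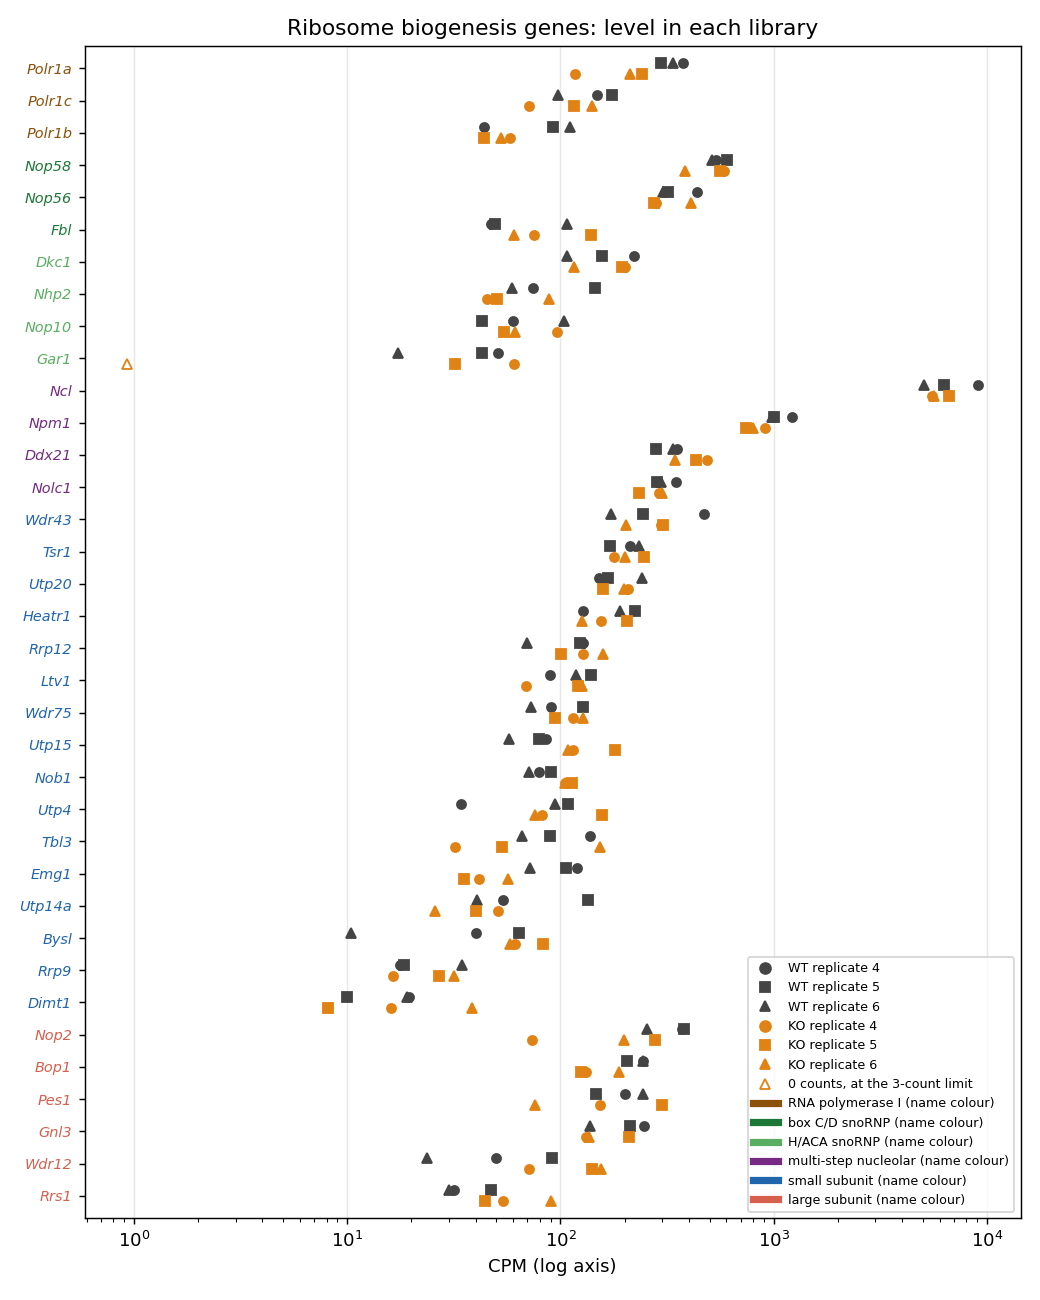
CPM of each of the 36 genes (rows, coloured by class) in each library on a log axis, with grey symbols for WT and orange for KO, circles for replicate 4, squares for replicate 5 and triangles for replicate 6. Ncl stands far to the right at 5081 to 9074 CPM, and the open triangle is Gar1 in KO replicate 6, which had 0 counts and is drawn at the 3-count limit of 0.931 CPM.

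The members spanned a wide range of abundance. Per kilobase of coding sequence, the mean level over the 6 libraries ran from 17.1 CPM for Rrp9, a protein specific to the U3 snoRNP, to 3006 CPM for Ncl, with a median of 79.9 CPM. Reads from untranslated regions are counted too, so a gene with long untranslated regions stands higher on this scale. On it the small-subunit factors had a median of 41.1 CPM and the large-subunit factors 96.5 CPM. The small-subunit range of 17.1 to 139 CPM held the large-subunit range of 45.2 to 111 CPM within it. Among replicates, the coefficient of variation of CPM had a median over members of 28.2% in WT and 27.6% in KO.

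None of the 3 RNA polymerase I subunits passed the test; all 3 estimates were below 0, and the groups separated for Polr1a but not for Polr1b or Polr1c. Polr1a, the largest subunit, with the catalytic centre (ENSMUSG00000049553, chromosome 6 from 71909053 to 71984935 in mm10), had 374, 297 and 339 CPM in WT and 117, 240.2 and 211 CPM in KO replicates 4, 5 and 6. Every KO value lay below every WT value. The means were 337 ± 38.4 and 189 ± 64.6 CPM (SD, n = 3 per group), and KO differed from WT by -0.83 ± 0.30 (SE) on the log2 scale, with 95% bounds of -1.48 and -0.18 (edgeR adjusted p = 0.528). Leaving out 1 library moved it between -1.03 and -0.57. Polr1b, the second-largest subunit, had 43.8, 91.9 and 110.4 CPM in WT and 58.1, 43.7 and 52.4 CPM in KO (log2 fold change -0.67 ± 0.54). Polr1c, which RNA polymerases I and III share, had 149, 175 and 97.1 CPM in WT and 71.4, 115 and 141 CPM in KO (-0.36 ± 0.40). The intervals of both held 0.

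Averaged over the 3 subunits on the log2 CPM scale (prior count 2), the WT libraries stood at 7.09, 7.40 and 7.27 and the KO libraries at 6.31, 6.75 and 6.87. The groups did not overlap, and KO replicate 4 was lowest. The same means for the box C/D, H/ACA, multi-step, small-subunit and large-subunit classes overlapped between the groups. Polr1a, whose groups separate alone, is 1 of the 3 genes in this mean. Among single genes, the groups did not overlap for 14.9% of all tested genes. The share for means of 3 genes was not computed. The share of counts from 3 genes whose annotation overlaps ribosomal RNA repeats, Gm42418 by far the largest, was 12.5% to 14.0% in WT and 9.63% to 10.9% in KO libraries. The 3 genes went both ways. Gm42418 (log2 fold change -0.51, edgeR adjusted p = 0.0099) and Gm15564 (-0.78, 0.387) were lower in KO. Gm26917 was higher in every KO library, at 23.1, 969 and 1570 CPM in WT and 2197, 2596 and 10981 CPM in KO. These libraries were made from poly(A)-selected RNA, so the share is of what remained after selection. Its part in the RNA polymerase I values was not tested. With these genes left out before scaling, the log2 fold changes of Polr1a, Polr1b and Polr1c kept their sign. Leaving out 3 genes can hardly move TMM scaling, so this does not bear on the part of that share.

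The box C/D proteins form the particle that guides ribose methylation and the core of the U3 snoRNP. Nop58, a scaffold protein and the most abundant of the 3, had 537, 606 and 513 CPM in WT and 582, 562 and 386 CPM in KO. Its groups overlapped, and the log2 fold change of -0.11 ± 0.22 had bounds of -0.59 and 0.36. Nop56, the other scaffold, had 302 to 437 CPM in WT and 274 to 411 CPM in KO (-0.13 ± 0.26). Fbl, the methyltransferase fibrillarin, had 47.4, 49.5 and 107 CPM in WT and 75.3, 139 and 60.8 CPM in KO, with overlapping groups and a log2 fold change of 0.43 ± 0.53. The edgeR adjusted p was 0.99996 for each of the 3.

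The H/ACA proteins, which carry out pseudouridylation and also stabilise telomerase RNA, overlapped between groups in every case. Dkc1, the pseudouridine synthase dyskerin, had 220.1, 156 and 107 CPM in WT and 199.7, 195 and 116 CPM in KO (log2 fold change 0.08 ± 0.37). Nhp2, a core protein, had 74.2, 146 and 59.0 CPM in WT and 45.3, 50.5 and 88.7 CPM in KO (-0.60 ± 0.53). Nop10, another core protein, gave 0.03 ± 0.53.

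Gar1, the remaining core protein, varied most among the 36 in the libraries labelled KO. It had 84, 86 and 30 counts in WT and 156, 75 and 0 counts in KO replicates 4, 5 and 6. A count of 0 in KO replicate 6 allows up to 3 counts, or 0.931 CPM, by counting error alone. The interval of its log2 fold change ran from -3.07 to 2.55, and without KO replicate 6 the estimate went from -0.26 to 0.32.

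The 4 proteins that act at several steps were the most abundant class, and all 4 intervals lay within 2-fold. Nucleolin (Ncl), which binds the precursor and ribosomal DNA chromatin, had 9074, 6302 and 5081 CPM in WT and 5541, 6634 and 5622 CPM in KO. WT replicate 4 was highest, and without it the log2 fold change went from -0.20 to 0.06. Nucleophosmin (Npm1), a histone and ribosome chaperone, had 1224, 1006 and 979 CPM in WT and 911, 743 and 795 CPM in KO. Every KO value of Npm1 lay below every WT value, with a log2 fold change of -0.39 ± 0.18 (edgeR adjusted p = 0.768). Npm1 has processed pseudogenes of near-identical sequence, and how reads shared with them were counted is not known here. Nolc1, a snoRNP chaperone, gave -0.17 ± 0.25. The RNA helicase Ddx21 had 353, 279.8 and 338 CPM in WT and 485, 433 and 344 CPM in KO (0.38 ± 0.24), with 1 KO value inside the WT range.

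**Figure D2:**
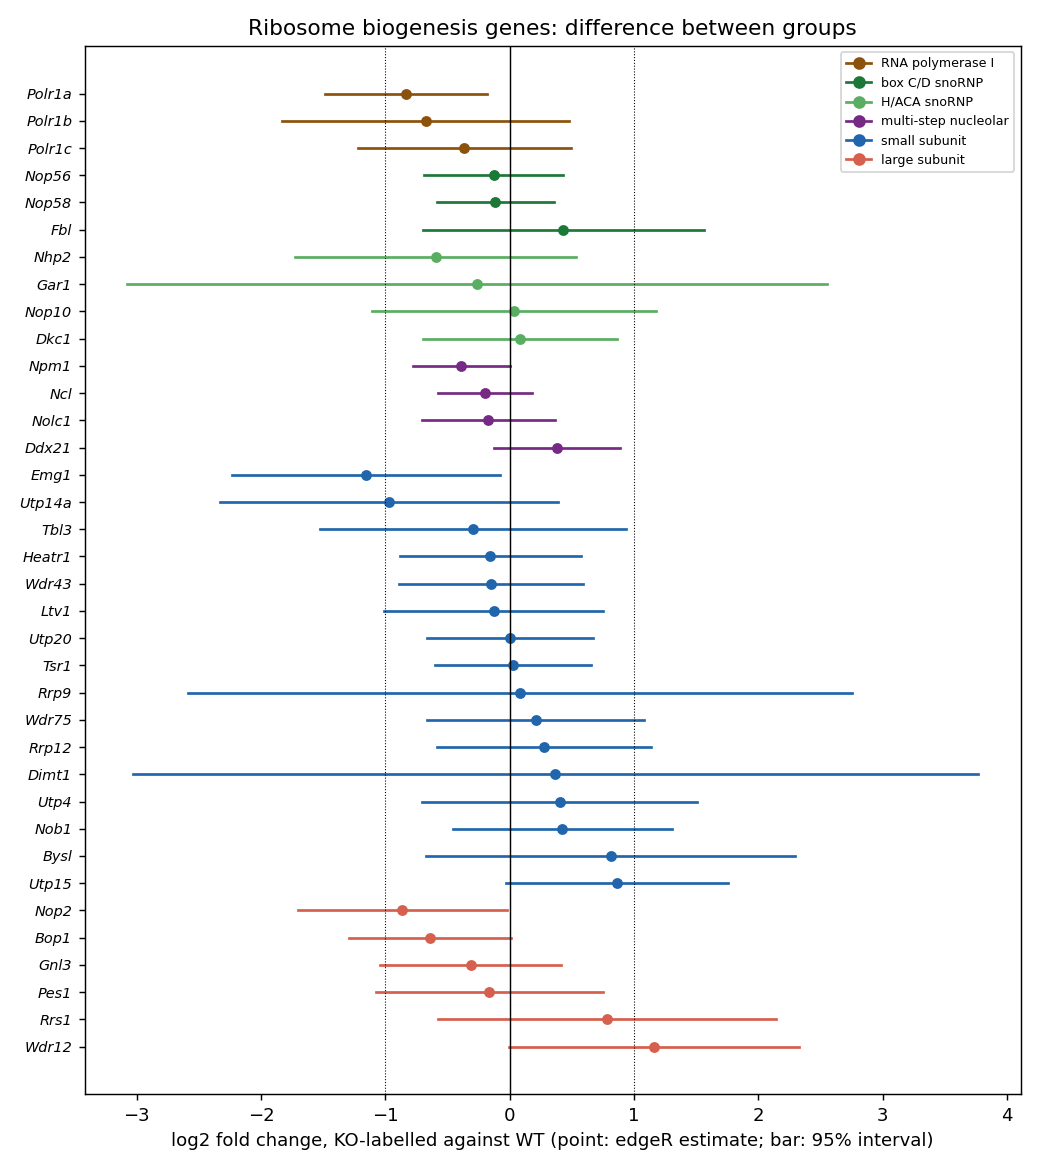
Log2 fold change of each of the 36 genes (points, edgeR estimate; bars, 95% interval) for libraries labelled KO against WT, grouped by class, with dotted lines at -1 and 1. All 3 RNA polymerase I points lie left of 0, the small-subunit points lie on both sides, and no gene passed an adjusted p of 0.05.

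The small-subunit factors stood on both sides of 0. Of 16 genes, 10 had an estimate above 0 and 6 below, the median log2 fold change was 0.05, and none passed the test. Among the 9 processome proteins and their partners, 5 were above 0 and 4 below. Wdr43, a component of the UTP-A complex that joins the precursor early, was the most abundant at 471, 245 and 172 CPM in WT and 298, 302 and 203 CPM in KO. Its groups overlapped and its log2 fold change of -0.15 ± 0.35 became 0.36 without WT replicate 4. Utp15, of the same complex, was higher in every KO library, at 85.7, 78.9 and 57.2 CPM in WT and 114, 181 and 109 CPM in KO (0.86 ± 0.42, edgeR adjusted p = 0.811). The other UTP-A members gave 0.40 ± 0.52 for Utp4, 0.21 ± 0.41 for Wdr75 and -0.16 ± 0.34 for Heatr1. None of the 5 members of this complex passed the test, and Heatr1, like Wdr43, had an estimate above 0 (0.03) without 1 WT library, replicate 5.

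Tbl3 of the UTP-B complex, the helicase activator Utp14a and the scaffold Utp20 gave log2 fold changes of -0.30 ± 0.57, -0.97 ± 0.64 and 0.00 ± 0.31. The groups of Utp14a overlapped, with its highest value of 134 CPM in WT replicate 5. Rrp9 was near the bottom of the set at 17.6, 18.5 and 34.7 CPM in WT and 16.4, 27.0 and 31.6 CPM in KO (0.08 ± 1.25).

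Among the enzymes that modify 18S RNA, Emg1, which methylates a pseudouridine, had the lowest estimate of the 36. Emg1 (ENSMUSG00000004268, chromosome 6 from 124704085 to 124712178) had 119, 106 and 71.7 CPM in WT and 41.4, 35.1 and 56.5 CPM in KO. No KO value reached the WT range. The log2 fold change of -1.16 ± 0.50 had bounds of -2.24 and -0.08 (n = 3 per group; edgeR adjusted p = 0.689, DESeq2 0.206). It stayed negative with any 1 library left out, and was -1.37 at the lowest. Exons of Lpcat3 on the opposite strand cover 7.21% of its exons. Dimt1, which dimethylates adenosines near the 18S 3′ end, had 9.99 to 19.5 CPM in WT and 8.14 to 38.5 CPM in KO, too few for a bound closer than -3.03 to 3.76.

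The later small-subunit factors act on the precursor particle on its way out of the nucleus and in the cytoplasm. Nob1, the endonuclease that makes the 18S 3′ end, was higher in every KO library, at 79.7, 89.9 and 71.1 CPM in WT and 105, 113 and 105 CPM in KO. Its log2 fold change was 0.42 ± 0.41 (edgeR adjusted p = 0.99996). Bysl gave 0.81 ± 0.69, with its lowest value of 10.4 CPM in WT replicate 6. The export factor Rrp12 gave 0.28 ± 0.40, Tsr1 gave 0.03 ± 0.29 and Ltv1 gave -0.13 ± 0.41. Exons of genes on the opposite strand cover 37.3% of the exons of Tbl3, 32.3% of Tsr1, 31.9% of Dimt1 and 11.5% of Utp14a. Without a known strand mode, reads in those stretches cannot be assigned to either gene with certainty.

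None of the 6 large-subunit factors passed the test. Pes1, Bop1 and Wdr12 form the PeBoW complex, needed to process the 28S side of the precursor. Bop1 had 244, 206 and 244 CPM in WT and 131, 125 and 188 CPM in KO, so that every KO value was below every WT value (-0.64 ± 0.31, edgeR adjusted p = 0.781). Wdr12 had 49.9, 90.9 and 23.7 CPM in WT and 71.0, 141 and 155 CPM in KO (1.16 ± 0.55, adjusted p = 0.776), and its groups overlapped. Pes1 had 201, 147 and 245 CPM in WT and 153, 300.1 and 75.7 CPM in KO, a KO range that held the whole WT range (-0.16 ± 0.43). Whether the 3 differ from each other in their response was not tested.

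Nop2, a cytosine methyltransferase of 28S RNA, had the lowest estimate of the class. Nop2 (ENSMUSG00000038279, chromosome 6 from 125131909 to 125144753) had 369.7, 379 and 254 CPM in WT and 73.7, 278 and 199 CPM in KO. KO replicate 5 lay inside the WT range and KO replicate 4 was lowest. The log2 fold change was -0.86 ± 0.39 (edgeR adjusted p = 0.732), and without KO replicate 4 it was -0.48. Gnl3, the GTPase nucleostemin, gave -0.31 ± 0.34, and Rrs1, which helps to place the 5S particle, gave 0.78 ± 0.64. Over the 6 large-subunit genes 4 estimates were below 0, and the median was -0.24 (-0.54 without KO replicate 5, -0.01 without KO replicate 6).

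The comparison of small- with large-subunit factors gave no separation of the groups. The mean log2 CPM of the 16 small-subunit genes minus that of the 6 large-subunit genes was -0.72, -0.64 and -0.56 in WT replicates 4, 5 and 6. It was -0.28, -0.81 and -0.49 in KO replicates 4, 5 and 6. On this scale KO replicate 4 was highest and KO replicate 5 lowest of all 6 libraries, so the KO values enclosed the WT values. The means were -0.64 ± 0.08 and -0.53 ± 0.26 (SD, n = 3 per group), a difference of 0.11 on the log2 scale. Without KO replicate 4 the difference was -0.01, and without KO replicate 5 it was 0.25. From summed CPM, in which abundant genes weigh more, the difference was 0.36. That is further from 0.11 than the per-library SD of 0.195, so the size of the difference depends on the scale. The enclosure of the WT values was read on mean log2 CPM only. No test was made, since the genes were chosen with results of these data known.

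**Figure D3:**
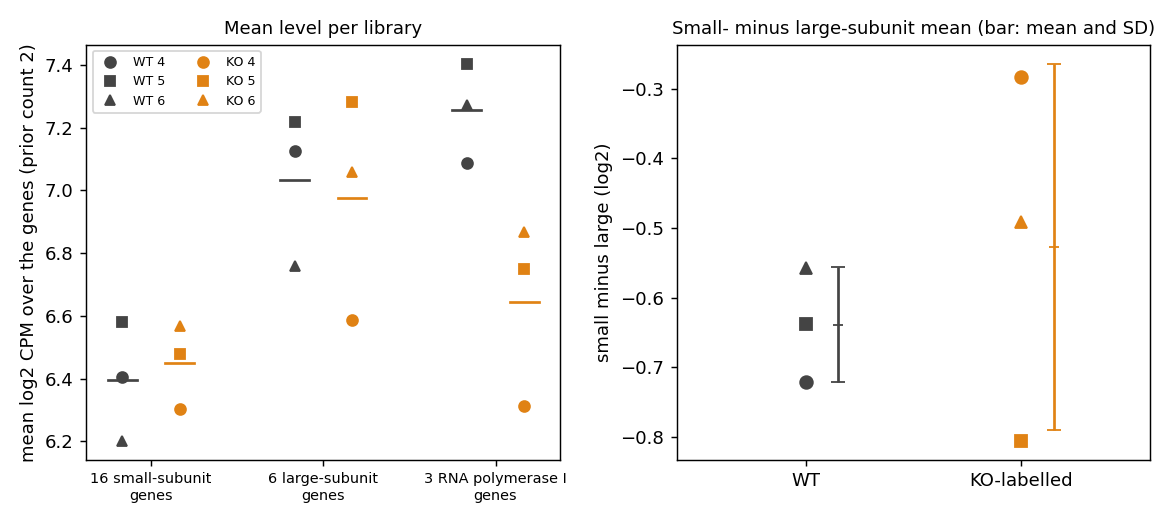
Left, the mean log2 CPM over the small-subunit, large-subunit and RNA polymerase I genes in each library (points) with the group mean (line); right, the small- minus large-subunit difference in each library with the group mean and SD. The RNA polymerase I points of the 2 groups do not overlap, while the small-subunit and large-subunit points do. The KO differences, from -0.81 to -0.28, enclose the WT differences, from -0.72 to -0.56.

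Further genes of the same pathway were read from 3 wider lists. None of 42 tested small-subunit factors, 50 large-subunit factors and 11 RNA polymerase I genes passed in edgeR. At an unadjusted edgeR p under 0.05 there were 2, 7 and 0 genes (4.76%, 14% and 0%), of which 2, 5 and 0 were lower. The share was 6.49% of all tested genes (3.79% lower and 2.70% higher) and 10.6% of those between 50 and 400 CPM. The median levels of the 3 lists were 71.4, 95.8 and 25.9 CPM, against 36.6 CPM over all tested genes. DESeq2 called 1, 3 and 0 genes, against 2.89% of all tested genes. Estimates lay below 0 for 28 of 42, 31 of 50 and 8 of 11 genes, where 51% of all tested genes did. The medians were -0.27, -0.34 and -0.51, against -0.02 over all tested genes. These counts and medians were not recomputed with a library left out or under another scaling. Genes read in the same 6 libraries are not independent of each other. Of the 11 RNA polymerase I genes, 5 (Polr1e, Polr1f, Polr1g, Taf1a and Ttf1) had at most 1 count in at least 1 library. The lowest estimate was that of Taf1a, with 82, 107 and 30 counts in WT and 0, 79 and 3 in KO.

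Rrp1, a large-subunit processing factor, had the smallest p of the wider lists. It had 212, 194 and 193 CPM in WT and 84.3, 71.1 and 52.1 CPM in KO, with every KO value below every WT value. The log2 fold change was -1.53 ± 0.36 and the adjusted p was 0.0967 in edgeR, 3.81e-04 in DESeq2, 0.0342 in limma-voom and 0.0412 in edgeR without a filter on low counts. With 1 library left out the edgeR adjusted p was 0.17 at the lowest. Pa2g4, which binds the ribosome precursor and regulates growth, had 303, 364 and 269 CPM in WT and 128, 157 and 210.3 CPM in KO (-0.92 ± 0.29; adjusted p = 0.413 in edgeR, 0.0331 in DESeq2).

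The processome protein Utp11 had 81.5, 189 and 68.2 CPM in WT and 48.0, 30.8 and 16.4 CPM in KO (-1.83 ± 0.60; adjusted p = 0.422 in edgeR, 0.0407 in DESeq2). Mphosph10, another processome protein, had 229, 110.4 and 108 CPM in WT and 79.6, 69.4 and 33.5 CPM in KO (-1.29 ± 0.48, edgeR adjusted p = 0.542). The groups of both did not overlap. In the other direction stood Mdn1, the giant ATPase that remodels the large-subunit precursor, at 184, 159 and 197 CPM in WT and 333, 287 and 337 CPM in KO (0.83 ± 0.27; adjusted p = 0.413 in edgeR, 0.0177 in DESeq2).

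Rbm28, a nucleolar RNA-binding protein, had 198, 177 and 210.4 CPM in WT and 227, 289.9 and 387 CPM in KO, groups that did not overlap (0.63 ± 0.29, edgeR adjusted p = 0.736). The helicase Ddx27 had 157, 156 and 61.9 CPM in WT and 56.2, 73.2 and 47.2 CPM in KO (-1.09 ± 0.48, adjusted p = 0.705). The polynucleotide kinase Nol9 had 156, 79.9 and 149 CPM in WT and 50.3, 91.2 and 48.7 CPM in KO (-1.02 ± 0.46, adjusted p = 0.736). The groups of Ddx27 and Nol9 overlapped.

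**Figure D4:**
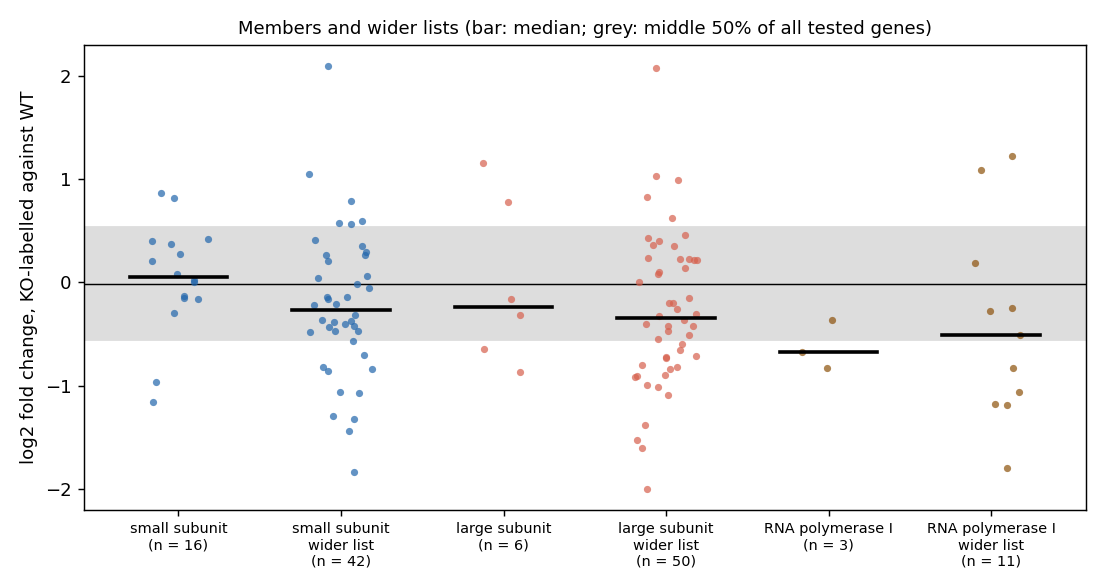
Log2 fold change of each tested gene (points, spread sideways at random) for the small-subunit, large-subunit and RNA polymerase I members and the wider list of each, with the median as a black bar and the middle 50% of single tested genes, from -0.56 to 0.54, in grey, a spread of genes and not of medians. The medians of the wider lists are -0.27, -0.34 and -0.51.

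Several members also hold snoRNA genes within their bounds, so that one gene can give both a protein and guide RNAs of the same pathway. Position in an intron was not checked, and in Nop56, Nop58, Ncl and Gnl3 some of these snoRNA genes overlap annotated exons. Of the 36 genes, 7 hold at least 1 annotated snoRNA gene on their own strand (19.4%, against 2.29% of 8181 tested genes in the annotation): Nop56, Nop58, Dkc1, Ncl, Wdr43, Tsr1 and Gnl3. Nop56 holds 5, among them Snord57 and Snord110, and Nop58 holds 4, among them Snord11 and Snord70. The snoRNA rows themselves had few reads in these poly(A)-selected libraries, from 0 over all 6 for those in Nop58, Dkc1 and Gnl3 to 99 for those in Ncl. Log2 fold changes of the 7 hosts ran from -0.31 to 0.08.

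A further feature that the choice of genes did not use is promoter sequence. RefSeq windows of the GRCm38.p6 assembly, from 250 bases before to 50 bases after the start, were matched for 30 of the 36 genes. The E-box CACGTG, the core site of MYC and related factors and its own reverse complement, was in the window of 7 of these 30 genes (23.3%). It was in the windows of 12.8% of tested genes and 8.09% of all genes with a window. The 7 stretches of 30 bases, shown because they are the shared motif in its context, are given 5′ to 3′ on the gene's strand with the E-box in capitals.
Nop2, chr6:125131811-125131840, plus strand: gtgtccctggatCACGTGtgttccggtgcc
Pes1, chr11:3963965-3963994, plus strand: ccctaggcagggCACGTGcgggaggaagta
Utp4, chr8:106893643-106893672, plus strand: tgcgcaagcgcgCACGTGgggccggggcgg
Wdr43, chr17:71616220-71616249, plus strand: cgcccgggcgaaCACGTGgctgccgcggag
Tsr1, chr11:74898092-74898121, plus strand: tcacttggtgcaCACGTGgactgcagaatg
Ltv1, chr10:13193092-13193121, minus strand: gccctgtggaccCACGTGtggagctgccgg
Utp20, chr10:88826765-88826794, minus strand: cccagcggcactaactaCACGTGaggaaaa

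In Nop2 the E-box began 60 bases before the annotated start, and in the other 6 genes it began 3 to 38 bases after it. The E-box genes were 5 of 14 small-subunit and 2 of 4 large-subunit genes with a window, and none of 6 snoRNP genes. Their log2 fold changes ran from -0.86 for Nop2 to 0.40 for Utp4, on both sides of 0. The ETS-type motif CCGGAAG, on either strand, was in 10 of 30 member windows (33.3%), against 23.5% of tested genes and 9.93% of all genes with a window. The exact palindromic NRF1 motif, also searched, was in none of the 30 windows, against 2.71% of tested genes, and the palindromic CGCG element was in none, against 1.45%. A match is a description of these letters and not a site shown to be bound.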

How the data were processed

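The authors deposited one table of unnormalized read counts, by Ensembl gene and library. HISAT2 2.0.5, featureCounts 1.5.0-p3, fastp and build mm10 are named per the submitters' processing notes, and per the labels' protocols RNA was poly(A)-selected and copied with random hexamers. The sources used here give no settings, strand mode or annotation release. Columns were matched to libraries through the labels. Of 53465 genes, 53274 matched a symbol in GENCODE M21 (same build). Counts were filtered with filterByExpr (minimum count 10), which left 8200 genes, scaled with TMM and tested with edgeR 4.0.16 (robust quasi-likelihood, R 4.3.3, two-sided, group as the only term). P-values were adjusted by Benjamini-Hochberg over all 8200 genes, with a threshold of 0.05. DESeq2 1.42.0 and limma-voom (limma 3.58.1) were alternatives, with other scalings and filters, the replicate number as a block, thinning to 1687466 counts, and leaving out each library. Intervals are at 95%, and counting floors cover counting error only.

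The 36 genes, their classes and the wider lists were chosen with earlier results of these data known, so no list was given a p-value. Of 108 wider-list genes 107 matched the table and 103 were tested. Every member is named; values in each library are given for members with an unadjusted p under 0.05, those most abundant or with the smallest p in a class and, from each wider list, up to 4 genes per direction with the smallest p under 0.05. Per-library values of Gar1, Polr1b, Polr1c, Ddx21, Utp15, Rrp9, Nob1, Bop1, Wdr12, Pes1 and Taf1a were added after they were seen. Those of Imp4, Fcf1, Mrto4 and Gm26917 also fall outside this choice. The fit was tested on simulated counts. Between libraries of 1 group, chi-square per gene was 21.5 to 52.2, where counting error alone gives about 1, so no library was a copy of another. One marker gene is not reported here.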

Additional observations from a re-analysis of the deposited data

How the results depend on the processing

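No member was called under any of the 9 other fits on all 6 libraries, at a threshold of 0.01, or with any library left out. Genes called in all were 33, but 237 with DESeq2, 93 with limma-voom, 91 without a filter on low counts, 16 at the threshold of 0.01, and 6 to 29 with a library left out. With the replicate number as a block (replicate block), 38 genes and no member passed. Same-numbered libraries of the 2 groups correlated at -0.02, -0.003 and -0.01 in their deviations from the group means. Differently numbered libraries correlated at -0.02 to 0.03. The numbers thus gave no sign of a pairing, but noise in single genes pulls such correlations towards 0, so a shared effect could be missed. The small- minus large-subunit difference of 0.11 was 0.36 from summed CPM, 0.21 with the wider lists, and -0.01 to 0.25 with a library left out.

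The members' median ran from -0.13 to -0.01 with a library left out. Estimates kept their sign under every setting for 21 of 36 members. On all 6 libraries the sign turned only for Utp20 (-0.0598) and Tsr1 (-0.0164) when thinned, and for Nat10 with limma-voom (0.0195) and library totals (0.0265). With a library left out, ranges crossing 0 were -0.35 to 0.0552 (Nop56), -0.21 to 0.0477 (Nop58), -0.15 to 0.37 (Dkc1), -0.25 to 0.45 (Nop10), -1.21 to 0.32 (Gar1), -0.38 to 0.0599 (Ncl), -0.35 to 0.0298 (Heatr1), -0.42 to 0.36 (Wdr43), -1.20 to 0.0943 (Tbl3), -0.13 to 0.47 (Rrp9), -0.12 to 0.23 (Utp20), -0.43 to 0.76 (Dimt1), -0.28 to 0.11 (Ltv1), -0.10 to 0.13 (Tsr1), -0.79 to 0.19 (Pes1) and -0.35 to 0.35 (Nat10). The cause was not tested.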

Other observations

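Counts of single genes jumped between libraries of the same group. At least 1 group held a library with at most 1 count beside a library with at least 50 counts for 2115 of 8200 tested genes (25.8%), a rule set after seeing the data. Among the wider lists this held for 23 of 103 genes (22.3%), and among the 36 members for 1, Gar1 (2.78%). The sets differ in abundance, on which a count of at most 1 depends. The median level was 114 CPM for the members, 73.5 CPM for the wider lists and 36.6 CPM for all tested genes. The share among genes of like abundance was not computed. Imp4, a U3-associated processome protein, had 97, 111 and 165 counts in WT and 119, 87 and 0 in KO replicates 4, 5 and 6. Fcf1, a processome nuclease-like protein, had 92, 182 and 1 counts in WT and 135, 120 and 135 in KO. Mrto4, a large-subunit factor, had 82, 118 and 74 counts in WT and 86, 178 and 0 in KO.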
